A study of Mus musculus with 9 samples.

Results

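DNA damage response and repair genes were followed in the RNA of sorted mouse leukemia cells. The 40 members were taken by gene name from an expression table of 55536 genes. They cover 5 genes of ATM and ATR kinase signalling, 8 genes of the 9-1-1 clamp and its fork mediators, 5 break sensors and mediators, 10 homologous recombination genes, 3 Fanconi genes, 2 mismatch repair genes, 5 genes of end joining with Parp1, and Trp53 with its inhibitor Mdm2. Each name was found once, and all 40 were among the 13722 genes that were tested, which had at least 1 TPM (a transcript level scaled for transcript length and for the size of the library) in at least 3 libraries.

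The leukemia was started by a retrovirus carrying MLL-AF9, a fusion of a histone methyltransferase gene with a transcriptional elongation gene, together with GFP. The GFP+ leukemia cells then received a second retrovirus with BFP alone (MA9) or with IL-34, a ligand of the CSF-1 receptor, and BFP (MA9-IL-34). GFP+BFP+ cells were given to C57BL/6J recipients of 6 to 8 weeks without irradiation, at 100000 cells per mouse, and leukemia cells were sorted from bone marrow on day 18. The 3 groups were MA9-c-Kit- cells, MA9-c-Kit+ cells, both with the BFP control vector, and MA9-IL-34 cells, which were also c-Kit+. There were 3 libraries per group. MA9-IL-34 thus differs from MA9-c-Kit+ in the IL-34 vector, and MA9-c-Kit+ from MA9-c-Kit- in the sort, while MA9-IL-34 differs from MA9-c-Kit- in both. The labels do not say whether each library came from its own mouse, so that the p-values describe the spread among these 9 libraries and no more. How many MLL-AF9 clones founded the cells is not given in the sources used here.

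A pair of kinases begins most responses to DNA damage. ATM is activated at double-strand breaks, where the MRE11, RAD50 and NBN complex recruits it, and ATR with its partner ATRIP is activated by single-stranded DNA at stalled replication forks, with the help of the RAD9, RAD1 and HUS1 clamp and of TOPBP1. They signal through the checkpoint kinases CHEK2 and CHEK1 to stop the cell cycle and to stabilise p53, whose main inhibitor is the ubiquitin ligase MDM2. Breaks are then repaired by homologous recombination, which uses the sister chromatid and works in S and G2 phase, or by end joining, which begins with the XRCC5 and XRCC6 heterodimer. Many recombination and fork genes are transcribed most in S phase, under E2F factors, so that their RNA level in a bulk sample also follows how many cells divide.

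Kit, the gene behind the sort, was at 1.63 to 2.90 TPM in the MA9-c-Kit- libraries, at 70.63 to 134.74 TPM in MA9-c-Kit+ and at 90.50 to 112.17 TPM in MA9-IL-34. Mouse Il34 was listed at 0 in all 6 MA9 libraries and at 0.10 to 0.14 TPM in the MA9-IL-34 libraries. The study names its IL-34 primers hIL-34. It does not state whether the insert of the vector is the human sequence, which would not be that of this gene. Of 9 tested monocyte and macrophage markers, 8 were lower in MA9-IL-34 and 7 in MA9-c-Kit+ relative to MA9-c-Kit- cells, and the summed level of the 10 markers listed was 8962 to 17600 TPM in MA9-c-Kit-, 2090 to 5009 TPM in MA9-c-Kit+ and 1991 to 2196 TPM in MA9-IL-34. Neutrophil markers summed to 303.8 to 373 TPM in MA9-c-Kit-, 28.76 to 160.4 TPM in MA9-c-Kit+ and 97.23 to 170.8 TPM in the MA9-IL-34 libraries. In the same order, Mmp8 was at 192 ± 26.0 TPM (SD, n = 3), 0.76 ± 0.0624 TPM and 0.47 ± 0.425 TPM. Camp went the other way, at 0.76 ± 0.477 TPM, 16.8 ± 13.3 TPM and 19.7 ± 8.23 TPM. Of 6 tested, 1 was higher and 1 lower in MA9-IL-34, and 1 higher and 2 lower in MA9-c-Kit+ relative to MA9-c-Kit- cells. Megakaryocyte markers summed to 2.31 to 3.64 TPM in MA9-c-Kit-, 1.28 to 3.99 TPM in MA9-c-Kit+ and 4.86 to 7.62 TPM in the MA9-IL-34 libraries. Of 2 tested, 1 (Gp9) was higher in each of the 3 comparisons. Erythroid markers summed to 1575 TPM in MA9-c-Kit- replicate 3 and to 19.92 to 69.74 TPM in the other 8 libraries. All 8 T and NK cell markers were under 1 TPM in every library, as were 5 of 6 B cell markers. Mitochondrial transcripts took 5.1% of MA9-c-Kit+ replicate 2 and 8.79% to 11.1% of the others.

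The members were higher in both c-Kit+ populations relative to MA9-c-Kit- cells, and none was called between the MA9-IL-34 and the MA9-c-Kit+ cells. Against MA9-c-Kit- cells, 32 of 40 members were higher in MA9-IL-34 cells and 1 was lower, at an adjusted p under 0.05 (limma on log2(TPM + 1), Benjamini-Hochberg over all genes tested). Over all genes tested, 26.6% were higher and 23.4% were lower in this comparison. In MA9-c-Kit+ compared with MA9-c-Kit- cells, 26 members were higher and 1 was lower, beside 19.3% higher and 19% lower over all genes. The member that was lower was Mdm2 in both comparisons. Both comparisons use the same MA9-c-Kit- libraries and are not independent of each other. In a bulk sample a change in the share of dividing cells and a change in the RNA of each cell cannot be told apart.

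The median log2 fold change over the 40 members was 0.84 in MA9-IL-34 compared with MA9-c-Kit- cells, with a range from -0.46 to 1.61, and the median over all genes tested was 0.06. It was 0.74 in MA9-c-Kit+ compared with MA9-c-Kit- cells, with a range from -0.39 to 1.45, and 0.03 over all genes. The thresholds of the study, a fold change of at least 2 with an adjusted p under 0.05, were applied on the log2(TPM + 1) scale. The study does not state its scale, and this one understates changes of low genes. With them 12 members were higher in MA9-IL-34 and 5 in MA9-c-Kit+ relative to MA9-c-Kit- cells, and 0 were lower in either (limma). Over all genes, 11.3% were higher and 12.7% lower by these thresholds in the former comparison, and 5.66% and 9.15% in the latter. The summed level of the 40 members was 788.3 to 923.3 TPM in MA9-c-Kit-, 1348 to 1447 TPM in MA9-c-Kit+ and 1446 to 1541 TPM in the MA9-IL-34 libraries. In this sum the MA9-c-Kit- libraries lay below all others.

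**Figure D1:**
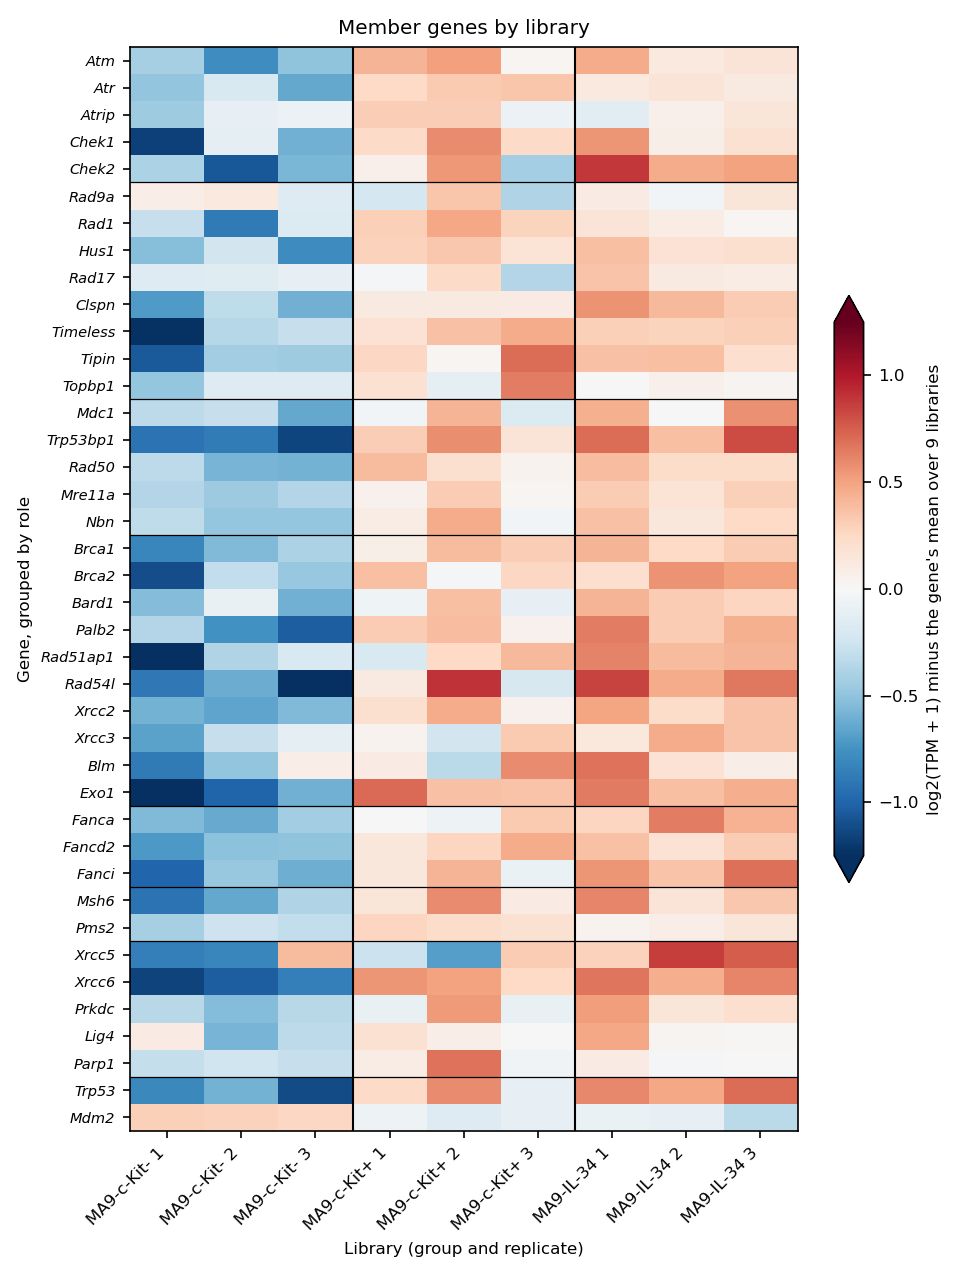
Colour gives log2(TPM + 1) of each member (rows, grouped by role and separated by lines) in each library (columns) minus the mean of that gene over the 9 libraries. The 3 MA9-c-Kit- libraries are low for nearly all genes, with Rad9a close to its mean and Mdm2 high.

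Between the MA9-IL-34 and the MA9-c-Kit+ cells, 0 of 40 members were higher and 0 lower (limma), while 7.43% of all genes were higher and 5.49% lower, or 3.86% and 3.38% with a fold change of at least 2. The median log2 fold change of the members was 0.13, beside 0.01 over all genes, and 27 members had a positive and 13 a negative value. The smallest adjusted p was 0.137, and 2 members had an unadjusted p under 0.05, namely Fanca and Clspn. For 37 members the 95% interval of the log2 fold change lay within -1 and 1, so that a difference of more than 2-fold was outside it, and the intervals of 3 members (Chek2, Rad54l and Xrcc5) reached beyond 1. A smaller difference was not excluded by these intervals. With the replicate number as a block in the MA9 groups, an alternative added after seeing the data, Trp53 (log2 fold change 0.36, SE 0.0841, adjusted p 0.0244) and Xrcc5 (0.85, SE 0.225, adjusted p 0.0367) were higher in MA9-IL-34 relative to MA9-c-Kit+ cells. With the replicate block over all 3 groups neither passed (adjusted p 0.24 and 0.117). The libraries of these groups overlapped for both genes, and Xrcc5 did not exceed 2.44 TPM in any library.

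**Figure D2:**
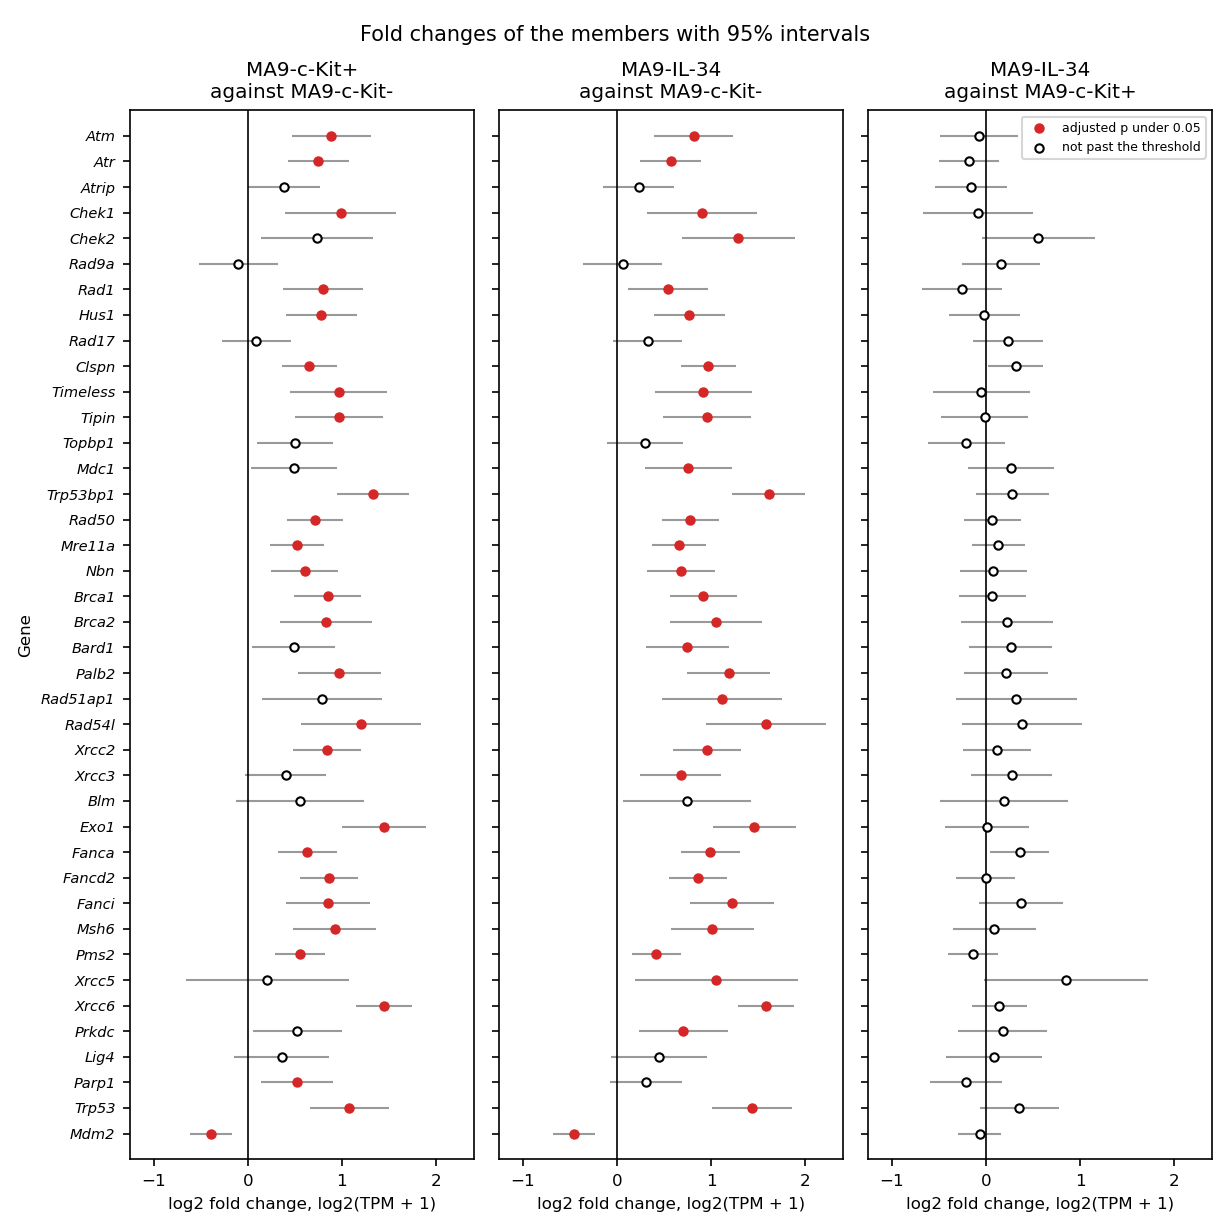
The log2 fold change of each member on the log2(TPM + 1) scale (x axis) is shown with its 95% interval from limma in the 3 comparisons. Filled points passed an adjusted p of 0.05, and these are 27 genes in MA9-c-Kit+ compared with MA9-c-Kit-, 33 in MA9-IL-34 compared with MA9-c-Kit-, and 0 in MA9-IL-34 compared with MA9-c-Kit+ cells.

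Where a pair of log2 fold changes is given without naming the groups, the former is for MA9-c-Kit+ and the latter for MA9-IL-34 cells, each relative to MA9-c-Kit- cells, and values listed for 3 groups begin with MA9-c-Kit- and end with MA9-IL-34. Of the kinases and their signalling partners, 4 of 5 were higher in MA9-IL-34 and 3 of 5 in MA9-c-Kit+ relative to MA9-c-Kit- cells. Atm, the kinase of double-strand breaks, was at 7.68, 5.75 and 7.18 TPM in the MA9-c-Kit- libraries, 14.58, 15.50 and 10.78 TPM in MA9-c-Kit+ and 15.01, 11.58 and 11.96 TPM in MA9-IL-34. Every c-Kit+ library was above every MA9-c-Kit- library. Its log2 fold change was 0.89 (SE 0.185, adjusted p 0.00556) in MA9-c-Kit+ and 0.82 (SE 0.185, adjusted p 0.0057) in MA9-IL-34 cells. Atr, the kinase of stalled forks, was at 8.22 to 11.57 TPM in MA9-c-Kit-, 16.13 to 17.33 TPM in MA9-c-Kit+ and 14.52 to 15.04 TPM in the MA9-IL-34 libraries, and its log2 fold change was 0.75 (SE 0.142, adjusted p 0.00362) and 0.57 (SE 0.142, adjusted p 0.00898). Atrip, which carries ATR to single-stranded DNA, did not pass the test in either comparison, and its groups overlapped at 10.39 to 13.73 TPM, 13.71 to 18.20 TPM and 13.06 to 16.21 TPM. Of its exon bases, 16% are shared with Trex1 on the same strand, so that reads of both genes cannot be told apart there.

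The effector kinases differed in their spread. Chek1, the target of ATR, was at 5.93, 13.36 and 9.27 TPM in MA9-c-Kit-, 17.41, 22.54 and 17.40 TPM in MA9-c-Kit+ and 21.88, 15.46 and 16.78 TPM in the MA9-IL-34 libraries. The c-Kit+ groups overlapped each other and not MA9-c-Kit-, but the MA9-c-Kit- libraries spread more than 2-fold among themselves. The log2 fold change was 0.99 (SE 0.26, adjusted p 0.0159) in MA9-c-Kit+ and 0.90 (SE 0.26, adjusted p 0.0175) in MA9-IL-34 cells, and the latter call was lost without MA9-IL-34 replicate 1. Chek2, the target of ATM, was at 13.57, 8.16 and 11.88 TPM in MA9-c-Kit-, 18.97, 26.78 and 13.27 TPM in MA9-c-Kit+ and 34.33, 25.36 and 26.06 TPM in the MA9-IL-34 libraries. It was higher in MA9-IL-34 relative to MA9-c-Kit- cells by 1.29 on the log2 scale (SE 0.265, adjusted p 0.00341). In MA9-c-Kit+ cells the value was 0.73 (adjusted p 0.0544), as 1 of the 3 libraries lay within the MA9-c-Kit- range, and against MA9-c-Kit+ cells MA9-IL-34 cells had 0.56 (SE 0.265, adjusted p 0.227).

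By their listed levels, the genes of the clamp that marks damaged forks did not move as a unit. Hus1 and Rad1, which form a ring with RAD9, were higher in both c-Kit+ groups. Hus1 was at 5.61 to 8.72 TPM in MA9-c-Kit-, 11.83 to 13.47 TPM in MA9-c-Kit+ and 11.92 to 13.77 TPM in the MA9-IL-34 libraries (log2 fold changes 0.78 and 0.77, both SE 0.167, adjusted p 0.00621 and 0.00464). Rad1 was at 6.76 to 11.70 TPM, 16.28 to 18.91 TPM and 13.57 to 14.99 TPM, and its log2 fold change was 0.80 (adjusted p 0.0101) in MA9-c-Kit+ and 0.54 (adjusted p 0.0388) in MA9-IL-34 cells. The latter call held in 11 of 19 alternatives and was lost with the replicate block (adjusted p 0.0589), and without MA9-c-Kit- replicate 2 the log2 fold change of Rad1 was 0.33 and did not pass. Rad9a, the subunit that binds TOPBP1, was at 36.51, 37.70 and 30.66 TPM in MA9-c-Kit-, 29.45, 44.03 and 26.29 TPM in MA9-c-Kit+ and 37.11, 33.76 and 38.48 TPM in the MA9-IL-34 libraries. Its groups overlapped fully, with log2 fold changes of -0.10 (95% interval -0.52 to 0.32) and 0.06 (95% interval -0.35 to 0.48). On the TPM scale the ratio of Rad9a to Hus1 was 4.32 to 5.47 in the MA9-c-Kit- libraries, 2.22 to 3.27 in MA9-c-Kit+ and 2.69 to 3.17 in MA9-IL-34. The ratio of Rad9a to Rad1 was 2.62 to 5.58, 1.61 to 2.33 and 2.37 to 2.84, so that MA9-IL-34 overlapped MA9-c-Kit- in this ratio. Both ratios were chosen after the values were seen and are given without a test. Rad9a shares 9.53% of its exon bases with Ppp1ca on the opposite strand, which stood at 369 TPM on average. The kit does not mark strand, so that reads of both genes cannot be told apart there. The share of such reads in the level and the ratios of Rad9a was not tested. Rad17, which loads the clamp, was at 20.31 to 21.21 TPM in MA9-c-Kit-, 17.47 to 27.20 TPM in MA9-c-Kit+ and 24.38 to 29.51 TPM in the MA9-IL-34 libraries and did not pass the test (log2 fold changes 0.09 and 0.33).

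The fork mediators Clspn, Timeless and Tipin were higher in both groups. Clspn, the adaptor through which ATR reaches CHEK1, was at 16.63, 22.00 and 17.94 TPM in MA9-c-Kit-, 30.05, 30.06 and 29.90 TPM in MA9-c-Kit+ and 41.47, 37.08 and 34.72 TPM in the MA9-IL-34 libraries. The 3 groups did not overlap at all. Its log2 fold change was 0.65 (SE 0.13, adjusted p 0.00452) in MA9-c-Kit+ and 0.97 (SE 0.13, adjusted p 0.000326) in MA9-IL-34 cells, and 0.32 (SE 0.13, adjusted p 0.157) between them. Timeless and Tipin, whose products travel together with the fork, were at 16.09 to 31.90 TPM and 57.43 to 88.45 TPM in MA9-c-Kit- cells. They were at 44.75 to 54.54 TPM and 122.46 to 195.42 TPM in the MA9-c-Kit+ libraries, and at 47.77 to 48.57 TPM and 138.76 to 156.10 TPM in the MA9-IL-34 libraries. Their log2 fold changes against MA9-c-Kit- cells lay between 0.92 and 0.97 in both groups (adjusted p 0.00433 to 0.00967). Topbp1, the activator of ATR, had the highest mean TPM over the 9 libraries of the 40 members, with 121.37, 151.95 and 151.83 TPM in MA9-c-Kit-, 194.03, 156.19 and 265.66 TPM in MA9-c-Kit+ and 170.06, 177.29 and 173.56 TPM in the MA9-IL-34 libraries. The groups did not overlap with MA9-c-Kit-, yet the log2 fold changes of 0.51 (adjusted p 0.0517) and 0.30 (adjusted p 0.195) did not pass. The former did not pass with the replicate block over all 3 groups either (adjusted p 0.0504). It passed with the block of the MA9 groups (adjusted p 0.0216), which was added after seeing the data.

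All 5 break sensors and mediators were higher in MA9-IL-34 and 4 of 5 in MA9-c-Kit+ relative to MA9-c-Kit- cells. Trp53bp1, which holds broken ends for end joining and limits their resection, had the largest fold change of the members in MA9-IL-34 cells on the log2(TPM + 1) scale over all 9 libraries, where Xrcc5 exceeded it with a pseudocount of 0.1. It was at 7.51, 7.77 and 6.27 TPM in MA9-c-Kit-, 18.93, 23.06 and 16.94 TPM in MA9-c-Kit+ and 25.06, 19.90 and 27.37 TPM in the MA9-IL-34 libraries. The lowest c-Kit+ library was at more than 2-fold the highest MA9-c-Kit- library. The log2 fold change was 1.33 (SE 0.17, adjusted p 0.000554) and 1.61 (SE 0.17, adjusted p 8.72e-05). Trp53bp1 shares 15% of its exon bases with Tubgcp4 on the opposite strand, and the kit does not mark strand.

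Mre11a, Rad50 and Nbn, the subunits of the complex that senses breaks and recruits ATM, moved by similar amounts. Rad50 was at 18.01 to 21.79 TPM in MA9-c-Kit-, 28.55 to 36.70 TPM in MA9-c-Kit+ and 32.58 to 36.38 TPM in the MA9-IL-34 libraries, Mre11a at 12.31 to 13.14 TPM, 17.55 to 21.62 TPM and 19.45 to 21.68 TPM, and Nbn at 9.68 to 11.02 TPM, 13.66 to 19.63 TPM and 15.51 to 18.33 TPM. None of the 3 genes had a c-Kit+ library within the MA9-c-Kit- range. Their log2 fold changes were 0.53 to 0.71 in MA9-c-Kit+ and 0.66 to 0.78 in MA9-IL-34 cells, all past the test. The ratio of Rad50 to Mre11a was 1.38 to 2.06 over the 9 libraries. Mdc1, the scaffold that reads phosphorylated H2AX, was at 17.92 to 23.07 TPM in MA9-c-Kit-, 25.12 to 38.54 TPM in MA9-c-Kit+ and 28.52 to 42.79 TPM in the MA9-IL-34 libraries. It passed in the MA9-IL-34 libraries (log2 fold change 0.76, adjusted p 0.0126) and not in MA9-c-Kit+ cells (0.49, adjusted p 0.0842). In the latter the adjusted p was 0.121 with the replicate block over all 3 groups. It was 0.0429 with the block of the MA9 groups, which was added after seeing the data.

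**Figure D3:**
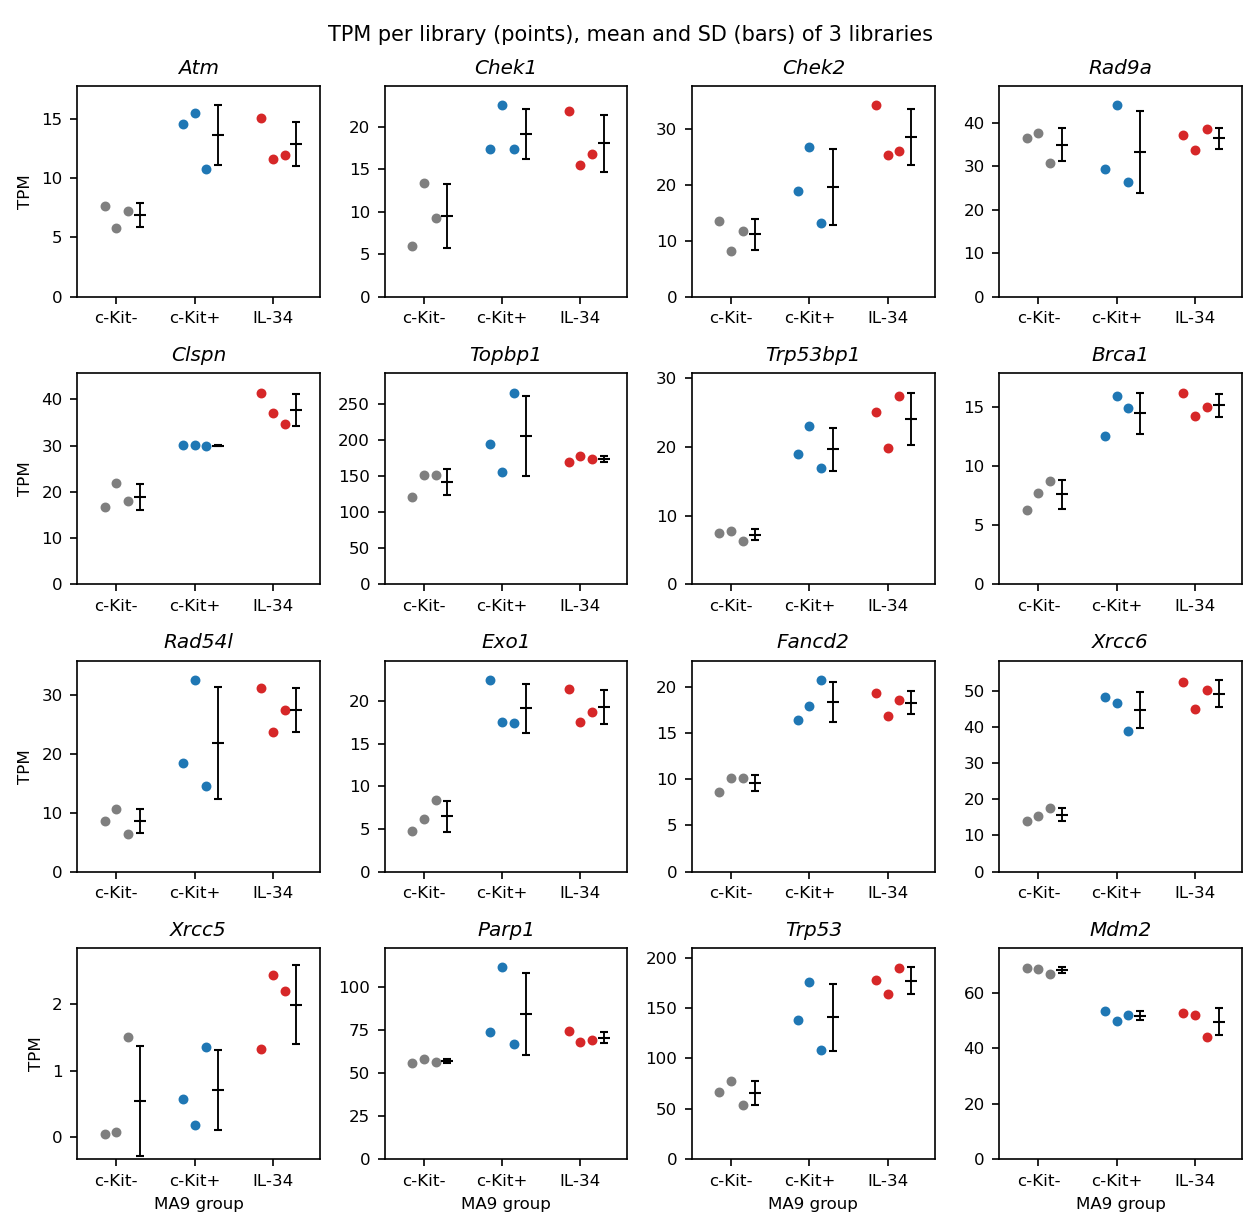
Points give the TPM (y axis, linear) of 16 members in each of the 3 libraries of a group (x axis), and the bars beside them the mean and SD. Xrcc6, Exo1 and Trp53bp1 separate MA9-c-Kit- from the other groups widely, Rad9a not at all, and Mdm2 is the gene with the higher level in MA9-c-Kit- cells.

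Of the homologous recombination genes, 9 of 10 were higher in MA9-IL-34 and 6 of 10 in MA9-c-Kit+ relative to MA9-c-Kit- cells, and 0 were lower. Exo1, an exonuclease that resects broken ends, was at 4.83, 6.18 and 8.46 TPM in MA9-c-Kit-, 22.50, 17.59 and 17.43 TPM in MA9-c-Kit+ and 21.49, 17.61 and 18.76 TPM in the MA9-IL-34 libraries. Both c-Kit+ groups overlapped each other, and lay at more than 2-fold every MA9-c-Kit- library. The log2 fold change was 1.45 (SE 0.197, adjusted p 0.000748) and 1.46 (SE 0.197, adjusted p 0.000345), and it was the largest of the members in MA9-c-Kit+ cells on this scale over all 9 libraries. Rad54l, a motor protein of strand exchange, was at 8.66, 10.64 and 6.44 TPM, 18.36, 32.53 and 14.61 TPM, and 31.11, 23.63 and 27.37 TPM. The groups did not overlap with MA9-c-Kit-, although the MA9-c-Kit+ libraries had a coefficient of variation of 43.3%. Its log2 fold change was 1.20 (SE 0.281, adjusted p 0.00962) and 1.58 (SE 0.281, adjusted p 0.00161), and 15.4% of its exon bases are shared with Lrrc41 on the opposite strand.

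Brca1, a ubiquitin ligase that promotes resection, and its partner Bard1 were at 6.31 to 8.73 TPM and 5.06 to 7.64 TPM in MA9-c-Kit- cells. Brca1 was at 12.51 to 15.94 TPM in MA9-c-Kit+ and 14.25 to 16.19 TPM in the MA9-IL-34 libraries (log2 fold changes 0.85 and 0.92, both SE 0.157, adjusted p 0.0032 and 0.0013). Bard1 was at 7.55 to 10.97 TPM and 10.06 to 11.34 TPM, and it passed in MA9-IL-34 cells (0.75, adjusted p 0.0112) and not in MA9-c-Kit+ cells (0.49, adjusted p 0.078). For Bard1 in MA9-c-Kit+ cells the adjusted p was 0.0612 with the replicate block over all 3 groups. It was 0.0133 with the block of the MA9 groups, which was added after seeing the data. Brca2, a mediator of strand exchange, was at 10.69, 19.28 and 17.16 TPM in MA9-c-Kit-, 31.52, 23.77 and 29.03 TPM in MA9-c-Kit+ and 28.13, 36.05 and 34.67 TPM in the MA9-IL-34 libraries. All 6 c-Kit+ libraries were above the MA9-c-Kit- libraries (0.83, adjusted p 0.0148, and 1.05, adjusted p 0.00334). Palb2, the bridge between BRCA1 and BRCA2, was at 4.80 to 8.17 TPM, 11.32 to 14.46 TPM and 13.74 to 17.52 TPM (0.97, adjusted p 0.00471, and 1.19, adjusted p 0.00104).

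Xrcc2, a recombination factor, was at 4.25 to 4.67 TPM in MA9-c-Kit-, 7.60 to 10.50 TPM in MA9-c-Kit+ and 8.72 to 10.70 TPM in the MA9-IL-34 libraries (0.84, adjusted p 0.00364, and 0.96, adjusted p 0.00111). Xrcc3, another recombination factor, spread more, with 13.20 to 19.71 TPM, 18.24 to 27.22 TPM and 23.79 to 30.05 TPM. It passed in MA9-IL-34 cells (0.68, adjusted p 0.0159) and not in MA9-c-Kit+ cells (0.40, adjusted p 0.125). Rad51ap1, an accessory factor of strand pairing, was at 14.56, 29.40 and 33.50 TPM in MA9-c-Kit-, 33.40, 45.90 and 51.16 TPM in MA9-c-Kit+ and 59.46, 50.70 and 51.86 TPM in the MA9-IL-34 libraries. MA9-c-Kit- replicate 1 was below all other libraries. The gene passed in MA9-IL-34 cells (1.11, adjusted p 0.0099), and in MA9-c-Kit+ cells it passed only in 5 of 19 alternatives (0.79, adjusted p 0.0535), which include both fits with a replicate block (adjusted p 0.0401 and 0.00276). Blm, the helicase that dissolves crossed strands, was at 12.03, 16.09 and 24.42 TPM, 24.90, 18.10 and 35.25 TPM, and 37.40, 26.25 and 24.47 TPM. It passed in neither comparison (0.55, adjusted p 0.175, and 0.75, adjusted p 0.0652), and in MA9-IL-34 cells it passed in 5 of 19 alternatives.

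All 3 Fanconi genes were higher in both groups. Fanca, a subunit of the core complex that responds to crosslinks, was at 44.27, 41.77 and 47.91 TPM in MA9-c-Kit-, 65.55, 62.59 and 82.30 TPM in MA9-c-Kit+ and 78.89, 102.56 and 88.91 TPM in the MA9-IL-34 libraries. Its log2 fold change was 0.63 (SE 0.139, adjusted p 0.00715) and 0.99 (SE 0.139, adjusted p 0.000427), and 0.36 (SE 0.139, adjusted p 0.137) between the c-Kit+ groups, whose libraries overlapped. Fancd2 and Fanci, the pair that the core complex ubiquitinates, were at 8.60 to 10.17 TPM and 3.99 to 6.17 TPM in MA9-c-Kit-, at 16.41 to 20.73 TPM and 8.38 to 12.28 TPM in MA9-c-Kit+, and at 16.89 to 19.33 TPM and 11.71 to 14.96 TPM in the MA9-IL-34 libraries. Fancd2 had the same log2 fold change of 0.86 (SE 0.138) in both, with adjusted p 0.00158 and 0.000894, and Fanci had 0.85 (adjusted p 0.00906) and 1.22 (adjusted p 0.000921). Fanca shares 10.5% of its exon bases with Zfp276 and Fanci 16% with Polg, each on the opposite strand.

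Both mismatch repair genes were higher in both groups. Msh6, which recognises mismatches, was at 11.81, 14.54 and 17.68 TPM in MA9-c-Kit-, 25.88, 35.43 and 24.97 TPM in MA9-c-Kit+ and 35.92, 26.15 and 29.62 TPM in the MA9-IL-34 libraries (0.92, adjusted p 0.00596, and 1.01, adjusted p 0.00245). Pms2, which cuts the strand to be repaired, was at 10.52 to 11.88 TPM, 16.60 to 17.50 TPM and 14.87 to 16.10 TPM. Its differences were smaller but so was its spread, and the MA9-IL-34 libraries lay between the other groups (0.56, adjusted p 0.00559, and 0.42, adjusted p 0.0146). Of 5 further mismatch repair genes, 1 was higher in MA9-IL-34 and 2 in MA9-c-Kit+ relative to MA9-c-Kit- cells, and 0 were lower (limma). Over all genes tested, 26.6% and 19.3% were higher in these comparisons.

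End joining with Parp1 had 3 of 5 genes higher in MA9-IL-34 and 2 of 5 in MA9-c-Kit+ relative to MA9-c-Kit- cells. Xrcc6, the smaller subunit of the heterodimer that caps broken ends, was at 14.10, 15.46 and 17.62 TPM in MA9-c-Kit-, 48.22, 46.51 and 38.84 TPM in MA9-c-Kit+ and 52.28, 44.99 and 50.19 TPM in the MA9-IL-34 libraries. It had the smallest adjusted p of all members in both comparisons, with log2 fold changes of 1.44 (SE 0.131, adjusted p 8.96e-05) and 1.59 (SE 0.131, adjusted p 2.04e-05). Xrcc6 shares 7.69% of its exon bases with Desi1 on the opposite strand, and the kit does not mark strand. Xrcc5, the other subunit, was near the floor of the filter in the same libraries, with 0.05, 0.08 and 1.50 TPM, 0.57, 0.18 and 1.36 TPM, and 1.32, 2.44 and 2.20 TPM. Xrcc5 passed in MA9-IL-34 compared with MA9-c-Kit- cells (1.06, SE 0.384, adjusted p 0.0455), but the groups overlapped and the call held in 10 of 18 alternatives. The size of this value depends on the pseudocount, and with a pseudocount of 0.1 the log2 fold change of Xrcc5 was 2.53. Prkdc, the kinase that the heterodimer activates, was at 4.30 to 5.07 TPM, 6.22 to 10.19 TPM and 7.58 to 10.05 TPM, and it passed in MA9-IL-34 cells (0.71, adjusted p 0.0194) and not in MA9-c-Kit+ cells (0.53, adjusted p 0.0731).

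Lig4, the ligase of end joining, was at 0.97 to 2.16 TPM in MA9-c-Kit-, 1.95 to 2.36 TPM in MA9-c-Kit+ and 1.97 to 3.11 TPM in the MA9-IL-34 libraries and passed in no comparison (0.36, 95% interval -0.15 to 0.87, and 0.45, 95% interval -0.06 to 0.95). Parp1, which binds nicks and breaks and builds poly-ADP-ribose, was at 55.85, 57.94 and 56.30 TPM in MA9-c-Kit-, 73.57, 111.06 and 66.92 TPM in MA9-c-Kit+ and 74.18, 68.04 and 68.82 TPM in the MA9-IL-34 libraries. It passed in MA9-c-Kit+ cells (0.52, SE 0.169, adjusted p 0.0372) in 10 of 19 alternatives, and not in MA9-IL-34 cells (0.31, adjusted p 0.163). MA9-c-Kit+ replicate 2, which holds the high value, is also the library with the low mitochondrial share. Without this library the log2 fold change of Parp1 in MA9-c-Kit+ cells was 0.30, still past the test, and on TPM computed without mitochondrial genes it was 0.52.

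Trp53 and Mdm2 went in opposite directions. Trp53, which encodes p53, was at 66.22, 77.10 and 53.37 TPM in MA9-c-Kit-, 137.75, 175.65 and 108.54 TPM in MA9-c-Kit+ and 177.86, 163.68 and 190.00 TPM in the MA9-IL-34 libraries. All c-Kit+ libraries were above the MA9-c-Kit- libraries, and the log2 fold change was 1.08 (SE 0.187, adjusted p 0.00237) and 1.43 (SE 0.187, adjusted p 0.000283). Mdm2, the ligase that degrades p53 and is itself a p53 target, was at 68.78, 68.43 and 66.74 TPM, 53.22, 49.89 and 51.84 TPM, and 52.66, 51.85 and 43.91 TPM. The MA9-c-Kit- libraries were the highest, and their coefficient of variation of 1.6% was the lowest of the members in that group. The log2 fold change of Mdm2 was -0.39 (SE 0.1, adjusted p 0.0143) and -0.46 (SE 0.1, adjusted p 0.00493). The ratio of Trp53 to Mdm2, chosen after the values were seen and given without a test, was 0.80 to 1.13 in MA9-c-Kit-, 2.09 to 3.52 in MA9-c-Kit+ and 3.16 to 4.33 in MA9-IL-34 libraries.

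The libraries of a group also varied among themselves. The median coefficient of variation over the 40 members was 16.9% in MA9-c-Kit-, 16.2% in MA9-c-Kit+ and 9.98% in MA9-IL-34 cells, and it was highest for Xrcc5 in each. MA9-c-Kit- replicate 1 had the lowest value of its group for 20 of the 40 members and for 23 of 24 S phase genes, with a median deviation from the group mean of -0.50 (log2) over the latter and of -0.04 over the members. Without it, 30 members were higher in MA9-IL-34 and 25 in MA9-c-Kit+ relative to MA9-c-Kit- cells, and without MA9-c-Kit- replicate 3, the library with the erythroid transcripts, 33 and 26 were. Mdm2 stayed the lower member in each of these fits. Several calls were lost when 1 library was left out. Relative to MA9-c-Kit- cells, the MA9-IL-34 call of Prkdc was lost without MA9-c-Kit- replicate 2 and also without MA9-IL-34 replicate 1, that of Xrcc3 without MA9-c-Kit- replicate 1 and also without either MA9-IL-34 replicate 2 or 3, and those of Mdc1 and Pms2 without MA9-IL-34 replicate 3. The MA9-c-Kit+ call of Brca2 was lost without MA9-c-Kit+ replicate 1, and that of Parp1 without any single MA9-c-Kit- or MA9-IL-34 library.

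Genes of DNA replication moved beside the members. Of 24 S phase genes (such as Cdc45, Uhrf1 and Tyms, none of them a member), 22 were higher in MA9-IL-34 and 19 in MA9-c-Kit+ relative to MA9-c-Kit- cells, and 0 were lower. Their median log2 fold change was 0.92 in MA9-c-Kit+ and 1.08 in MA9-IL-34 cells, and 0.21 between the MA9-IL-34 and the MA9-c-Kit+ cells. Their summed level was 935.6 to 1535 TPM in MA9-c-Kit-, 2063 to 2592 TPM in MA9-c-Kit+ and 2494 to 2989 TPM in MA9-IL-34 libraries. Cdc45, a subunit of the replicative helicase, was at 36.2 ± 6.06 TPM (SD, n = 3), 67.2 ± 6.67 TPM and 84.1 ± 8.75 TPM. The part of the S phase genes and of the monocyte, macrophage and neutrophil markers in the members' differences was not tested.

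Other genes of the same repair routes were examined from lists that hold no member. Of 22 further homologous recombination genes, 14 were higher and 2 lower in MA9-IL-34, and 10 higher and 1 lower in MA9-c-Kit+ relative to MA9-c-Kit- cells. Dna2, a resection nuclease, was lower in both (-1.09, adjusted p 9.23e-05, and -0.97, adjusted p 7.38e-05). Recql4, a helicase, was the only one of the 22 that passed between the MA9-IL-34 and the MA9-c-Kit+ cells (0.87, SE 0.151, adjusted p 0.00524). Of 13 further Fanconi genes, 9 were higher and 1 lower in MA9-IL-34, and 6 higher and 0 lower in the MA9-c-Kit+ libraries, led by Faap24 (1.28 in MA9-IL-34 cells, adjusted p 0.000572) and Fancm (1.03 in MA9-c-Kit+ cells, adjusted p 0.00269). Fance was the Fanconi gene that was lower in MA9-IL-34 cells (-0.37, adjusted p 0.027).

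The further end joining genes were mixed. Of 11, 5 were higher and 2 lower in MA9-IL-34, and 2 higher and 2 lower in MA9-c-Kit+ relative to MA9-c-Kit- cells. When MA9-IL-34 was set beside MA9-c-Kit+, 4 of the 11 were higher with IL-34 and 0 lower, where none of the members passed. Xrcc4, the scaffold of LIG4, was at 15.6 ± 5.28 TPM (SD, n = 3) in MA9-c-Kit-, 21.3 ± 5.85 TPM in MA9-c-Kit+ and 55.6 ± 8.42 TPM in the MA9-IL-34 libraries (1.37 against MA9-c-Kit+, SE 0.256, adjusted p 0.00793). Polm, a polymerase that fills ends, was at 27.0 ± 1.49 TPM, 10.2 ± 1.11 TPM and 20.9 ± 0.381 TPM (0.97 against MA9-c-Kit+, adjusted p 0.00088). Paxx, a factor that stabilises the end complex, was 0.64 higher on the log2 scale (adjusted p 0.00541). Dclre1c, the nuclease of end joining, was lower in both c-Kit+ groups than in the MA9-c-Kit- libraries, with log2 fold changes of -0.98 and -0.94.

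In base excision repair, 8 of 16 genes were higher and 1 lower in MA9-IL-34, and 9 higher and 1 lower in MA9-c-Kit+ relative to MA9-c-Kit- cells. Apex1, the endonuclease of abasic sites, was at 32.2 ± 11.6 TPM (SD, n = 3), 102 ± 7.86 TPM and 110 ± 3.43 TPM in the groups, whereas Polb, the gap-filling polymerase, was lower, at 48.3 ± 5.04 TPM, 28.1 ± 9.37 TPM and 19.1 ± 2.06 TPM. In nucleotide excision repair, 6 of 13 were higher and 3 lower in MA9-IL-34, and 5 higher and 1 lower in the MA9-c-Kit+ libraries. All 6 translesion synthesis genes were higher in MA9-IL-34 and 5 in MA9-c-Kit+ cells, and Rev1 was lower in MA9-IL-34 relative to MA9-c-Kit+ cells (-0.57, SE 0.116, adjusted p 0.0119). Of 14 genes of break ubiquitin signalling, resection control and the checkpoint, 5 were higher in MA9-IL-34 and 4 in MA9-c-Kit+ cells and 0 were lower. Over all genes tested, 26.6% and 19.3% were higher. The median log2 fold change of the 14 genes was 0.20 in MA9-IL-34 and 0.16 in MA9-c-Kit+ cells. Those that were higher include the cell cycle phosphatase Cdc25a (1.32 in MA9-c-Kit+ and 1.80 in MA9-IL-34 cells) and the kinase Wee1 (1.38 and 1.57).

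Among genes known as targets or regulators of p53, more were lower than higher in both c-Kit+ groups. Of 25 tested, 4 were higher and 10 lower in MA9-IL-34, and 4 higher and 9 lower in MA9-c-Kit+ relative to MA9-c-Kit- cells, beside the 23.4% and 19% of all genes that were lower. When MA9-IL-34 was set beside MA9-c-Kit+, 4 of the 25 were higher and 2 lower. Cdkn1a, the inhibitor that p53 induces to stop the cell cycle, was at 57.3 ± 5.0 TPM (SD, n = 3) in MA9-c-Kit-, 26.0 ± 3.01 TPM in MA9-c-Kit+ and 9.89 ± 0.481 TPM in the MA9-IL-34 libraries. Its log2 fold change was -1.11 (SE 0.125, adjusted p 0.00028) in MA9-c-Kit+ compared with MA9-c-Kit- cells and -1.31 (SE 0.125, adjusted p 0.000213) in MA9-IL-34 compared with MA9-c-Kit+ cells. Dglucy, another target, was at 29.9 ± 1.52 TPM, 20.0 ± 3.23 TPM and 7.90 ± 0.135 TPM. Fas, the death receptor, was lower in MA9-c-Kit+ relative to MA9-c-Kit- cells (-1.47, adjusted p 0.000461) and higher in MA9-IL-34 relative to MA9-c-Kit+ cells (0.94, adjusted p 0.00933). Xpc, which recognises damage for nucleotide excision repair, was higher in each of the 3 comparisons, at 37.3 ± 5.49 TPM, 70.0 ± 3.35 TPM and 109 ± 13.0 TPM, as was Tigar, a regulator of glycolysis, at 8.18 ± 0.208 TPM, 13.2 ± 1.74 TPM and 18.5 ± 0.708 TPM.

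**Figure D4:**
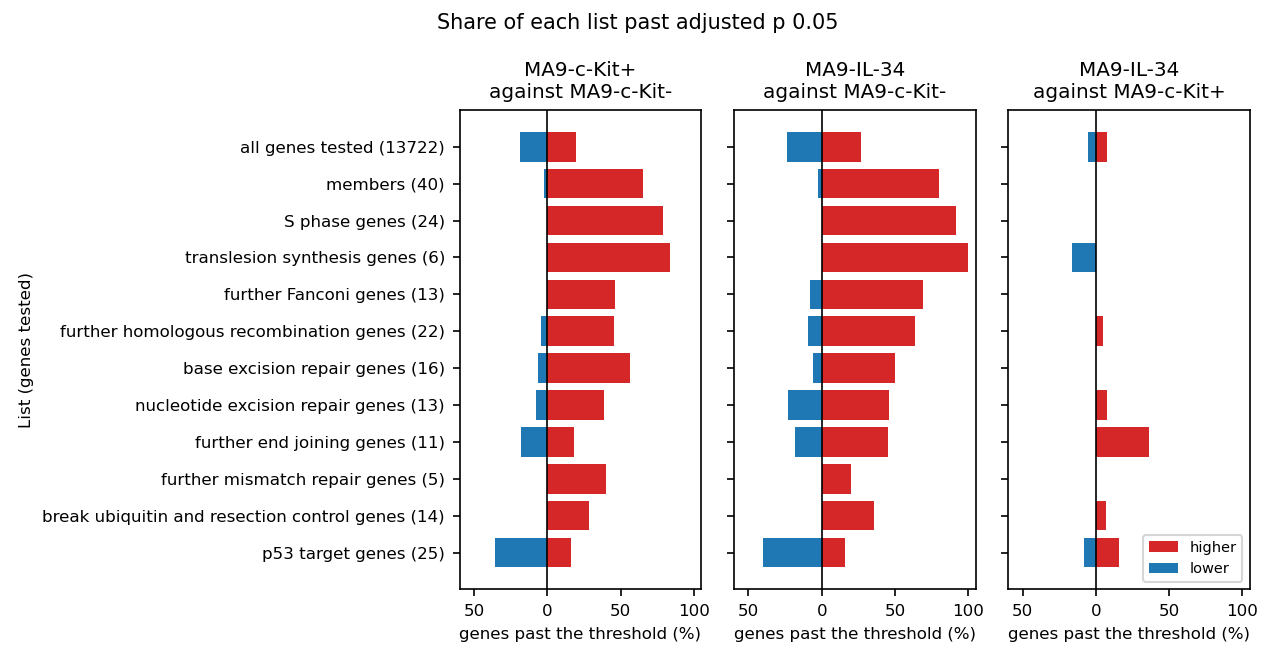
Bars give the share of genes past an adjusted p of 0.05 (x axis, percent of the genes tested in each list, with that number in brackets) that were higher, to the right, or lower, to the left. In both comparisons with MA9-c-Kit- the members and the S phase genes lie mostly to the right and the p53 list mostly to the left, and in MA9-IL-34 compared with MA9-c-Kit+ cells 0 of the 40 members are shown.

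The promoters of the members were read for motifs of cell cycle transcription, since many members moved together. RefSeq windows of 250 bases before and 50 bases after a start site (GRCm38.p6) were matched for 32 of the 40 members, and Tipin, Prkdc, Exo1, Rad50, Nbn, Fancd2, Rad9a and Xrcc2 were not matched. An E2F motif (TTTCCCGC, TTTGGCGC, TTTCGCGC or TTTGCCGC on either strand) was in the windows of 8 of the 32 members, or 25%, and in those of 2.6% of 27025 genes, which is 2.26% of 32851 windows. The 8 were Bard1, Brca2, Chek2, Clspn, Mdc1, Msh6, Topbp1 and Xrcc6. A CCAAT box (CCAAT on either strand) was in 19 of 32, or 59.4%, beside 41.1% of all genes, and the CHR element (TTTGAA on either strand) in 2 of 32, or 6.25%, beside 20.2%. A match of letters is a description and not a bound site.

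The 6 matches that lie before the start site are printed with 8 bases on either side, in the direction of the gene. The search fixed the letters of the motif, so that their likeness is no result. Capitals mark the motif, which reads GCGGGAAA or GCGCGAAA where it is on the opposite strand. Positions count back from the start site of the RefSeq window. The match of Xrcc6 lies in an annotated exon of that gene and within the span of Desi1, outside the exons of the latter (GENCODE M21). The other 5 lie in no annotated gene.
Chek2 (chr5:110839823-110839846, plus strand, -160 to -137): gattagccGCGGGAAAccaagacg
Topbp1 (chr9:103305190-103305213, plus strand, -137 to -114): ctcggttgGCGCGAAAgtcggttc
Mdc1 (chr17:35841474-35841497, plus strand, -24 to -1): tcagcctgTTTCCCGCcggtagcc
Brca2 (chr5:150522445-150522468, plus strand, -176 to -153): aggccacaGCGGGAAAcagacaca
Bard1 (chr1:71103166-71103189, minus strand, -217 to -194): ccgctcagTTTCCCGCtcaggaag
Xrcc6 (chr15:82016315-82016338, plus strand, -54 to -31): gggtggaaGCGGGAAAtgcgagtg

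The 250 bases before the start site are shown whole for Trp53bp1, the member with the largest fold change in MA9-IL-34 cells on the log2(TPM + 1) scale, and for Mdm2, the member that was lower, both in the direction of the gene and in no annotated gene. Neither holds an E2F match or a CHR element. Capitals in Mdm2 mark its CCAAT box, on the opposite strand, and Trp53bp1 has no match to any of the 3 motifs in its window.
Trp53bp1 (chr2:121271408-121271657, minus strand): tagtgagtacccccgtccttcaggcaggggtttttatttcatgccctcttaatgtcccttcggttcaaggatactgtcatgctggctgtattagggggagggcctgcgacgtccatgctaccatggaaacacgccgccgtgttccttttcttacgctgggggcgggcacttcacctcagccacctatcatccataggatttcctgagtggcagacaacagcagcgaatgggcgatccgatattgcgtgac
Mdm2 (chr10:117710759-117711008, minus strand): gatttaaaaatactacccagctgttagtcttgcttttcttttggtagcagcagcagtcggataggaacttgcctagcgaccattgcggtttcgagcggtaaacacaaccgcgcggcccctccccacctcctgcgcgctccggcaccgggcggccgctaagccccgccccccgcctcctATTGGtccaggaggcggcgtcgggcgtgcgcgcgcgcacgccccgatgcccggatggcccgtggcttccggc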

How the data were processed

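RNA of 9 libraries (3 per group) was prepared by the authors with an unstranded TruSeq kit. The methods of the study call the experiment a microarray, whereas the labels describe RNA sequencing, and the values were treated as RNA-seq. The authors deposited 1 table of TPM values. Its header names no unit, and each library sums to 977577 to 988051, near the total of TPM, which is why the values were read as TPM. The aligner, annotation and build are not given in the sources used here. TPM keeps no read counts, so depth is unknown and no counting interval or count test could be given. 1 column name lacks the sign of c-Kit and was assigned to MA9-c-Kit- replicate 3, the only sample left, and 0 columns were unassigned. The authors' pipeline was not rerun.

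limma 3.58.1 (R 4.3.3) fitted the 3 group means over 9 libraries on log2(TPM + 1), which understates changes of low genes, with a trended prior. The test was checked on simulated data. Genes needed at least 1 TPM in at least 3 libraries. Named are all members and, for each further list and comparison, up to 2 genes in each direction with the smallest p, and any other choice is marked. The members and lists were chosen with earlier results of these data known. Coordinates and exons are those of GENCODE M21 (GRCm38), and promoters those of RefSeq. Deviations from the group means of same-numbered libraries had positive r between the MA9-c-Kit- and the MA9-c-Kit+ (0.202, 0.239 and 0.443). With MA9-IL-34 the r of same-numbered libraries was negative (from -0.279 to -0.000871). These r were not tested. For unlike numbers, r was -0.324 to 0.159 between the MA9-c-Kit- and the MA9-c-Kit+, and reached 0.192 with MA9-IL-34. The labels do not say whether the numbers pair the libraries, and the main fit does not use them. Some genes of the further lists are not reported here by name.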

Additional observations from a re-analysis of the deposited data

How the results depend on the processing

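Against MA9-c-Kit- cells the number of members that were higher ranged over 19 alternatives from 27 to 34 in MA9-IL-34 and from 24 to 30 in MA9-c-Kit+ cells, and 1 member was lower in each. The median log2 fold change of the members ranged from 0.76 to 0.91 and from 0.66 to 0.81. Leaving out 1 library at a time gave 27 to 34 and 25 to 28 higher members, and 0 between the MA9-IL-34 and the MA9-c-Kit+ cells, where the median ranged from 0.04 to 0.18. With a fold change of at least 2 as a further condition, 12 and 5 members were higher and 0 lower. With the replicate number as a block over all 3 groups, 31 and 27 members were higher, and 0 between the MA9-IL-34 and the MA9-c-Kit+ cells. With the replicate block of the MA9 groups alone, chosen after seeing the data, these counts were 33, 30 and 2. This block raised the counts over all genes too. In the same order, 4290, 3394 and 1608 of the 13722 genes tested were higher, beside 3654, 2649 and 1019 in the main fit. Over all alternatives and comparisons, single members lost a call in 35 instances and gained one in 26. Calls of Xrcc5, Rad1 and Parp1 were the least stable. The cause was not tested. No result changed sign while it was past the threshold. The number of libraries limits the precision, and the depth behind the low values of Xrcc5 and Lig4 is unknown.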
